A study of Saccharomyces cerevisiae with 9 samples.

Results

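The 10 histone genes of budding yeast were followed among the 7036 genes of a chromatin immunoprecipitation sequencing (ChIP-seq) study of the ATPases Rvb1 and Rvb2. They were taken by their systematic identifiers: HTA1 (YDR225W) and HTA2 (YBL003C), which encode H2A, HTB1 (YDR224C) and HTB2 (YBL002W), which encode H2B, HHT1 (YBR010W) and HHT2 (YNL031C), which encode H3, HHF1 (YBR009C) and HHF2 (YNL030W), which encode H4, HTZ1 (YOL012C), which encodes the variant H2A.Z, and HHO1 (YPL127C), which encodes the linker histone H1. All 10 had a promoter window and a gene body window of 500 bp, and all 20 of these windows passed the filter on low counts. No measured value served as a criterion, but the choice was made with earlier results of these data known.

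The nucleosome core is built of H2A-H2B dimers around an H3-H4 tetramer. In yeast the core histone genes lie in divergent pairs that share a promoter, an H2A gene beside an H2B gene and an H3 gene beside an H4 gene. Their transcription peaks around S phase, and outside it the pairs other than HTA2-HTB2 are held down by the HIR complex and the chaperones Asf1 and Rtt106. HTZ1 and HHO1 stand alone and are not part of that arrangement. Rvb1 and Rvb2 form a ring found in the INO80 and SWR1 chromatin remodelling complexes, and SWR1 is the complex that exchanges H2A for H2A.Z next to promoters.

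Each library came from W303 cells in log phase that had been moved to medium without glucose for 10 min, so no group was left in glucose. The Rvb1 IP, Rvb2 IP and Pgk1 IP groups each held 2 pulldowns, made with rabbit IgG from sonicated lysates of strains carrying a TAP tag on Rvb1, on Rvb2 or on Pgk1, a glycolytic enzyme. The Input group held 3 libraries, 1 from every tagged strain. Nothing in the labels tells whether a strain's pulldowns were made from separate cultures or clones, so p-values reflect only the spread among these libraries, which may be technical. The labels name no fixation step.

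Promoter totals ran from 1217928 to 1993420 counts in the Rvb pulldowns, were 806134 and 2516799 in the Pgk1 pulldowns, and ran from 4342277 to 4636420 in the inputs. In every library the highest count of the promoter table was 1148, which equals the number of different positions and strands at which a read of 75 bases can overlap 500 bp. At gene bodies the highest count ran from 1148 to 1151, slightly past that number in some libraries. Counts are therefore taken to be compressed toward a ceiling near it, though the handling of duplicate reads is not stated. The median promoter count was 13.7% to 23.0% of 1148 in the Rvb pulldowns, 8.62% and 30.1% in the Pgk1 pulldowns and 53.6% to 57.1% in the inputs. The Pgk1 pulldowns stood apart from each other in depth and in their histone values, and histone, flanking and regulator gene calls of Rvb1 over Pgk1 are given with each of them left out.

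By their median percentile, the histone promoters other than that of HHO1 ranked high in every library, the inputs included. Values of 500 bp windows are given as CPM (counts scaled to the library total with TMM factors) and as a percentile among all windows of a library. The 9 histone promoters other than that of HHO1 lay between the 87.9th and 97.7th percentile in the 4 Rvb pulldowns, between the 67.4th and 94.5th in the Pgk1 pulldowns and between the 54.5th and 96.8th in the inputs. Their median percentile was 94.5 to 96.2 in the Rvb pulldowns, 92.6 and 90.1 in the Pgk1 pulldowns and 89.8 to 91.3 in the inputs. At gene bodies the same 9 genes spanned the 81.3th to 98.1th percentile in the Rvb pulldowns, the 37.0th to 98.2th in the Pgk1 pulldowns and the 20.7th to 97.3th in the inputs. The HHO1 promoter lay at the 36.6th to 65.1th percentile in the Rvb pulldowns, against the 43.4th and 79.0th in the Pgk1 pulldowns and the 59.4th to 87.8th in the inputs.

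The inputs themselves were uneven in rank but narrow in level. The 8 core histone genes had 642 to 756 counts at promoters and 607 to 735 at gene bodies in the inputs, where the median window had 615 to 655 and 622 to 663. A high percentile in an input is therefore a small step in counts, and the pulldowns are compared below with the input of their own strain as well as by rank.

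**Figure D1:**
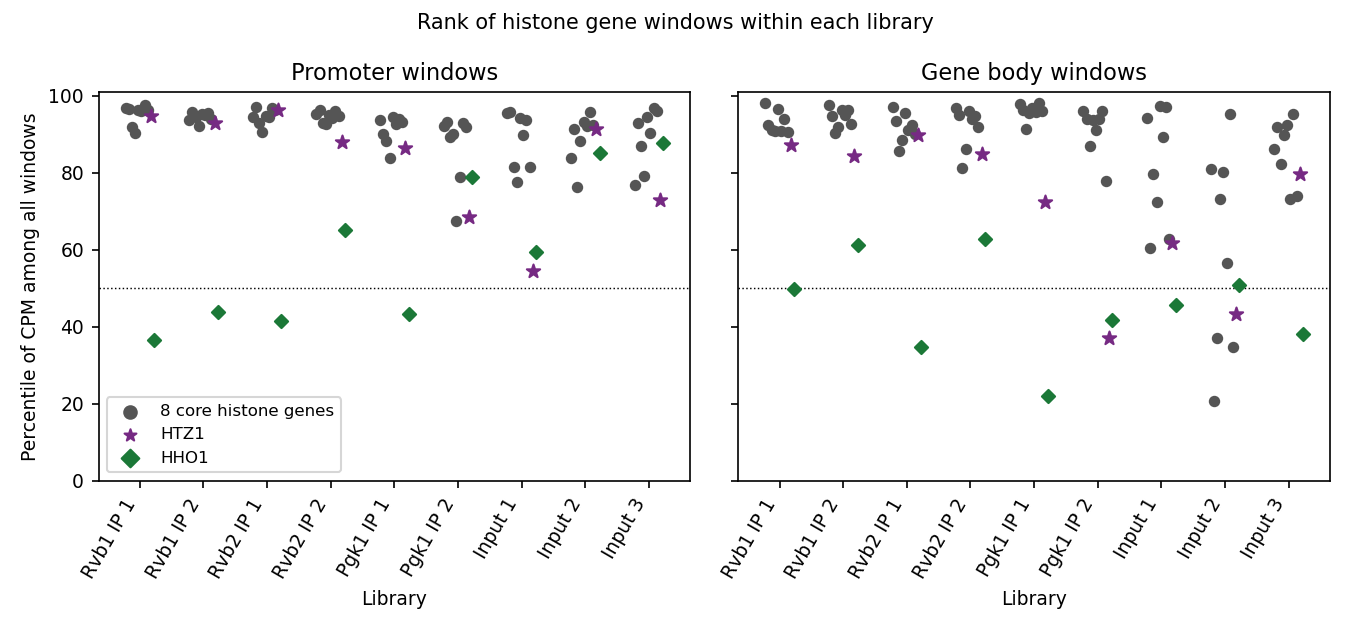
Percentile of CPM among all windows (y axis) for the histone gene windows in each of the 9 libraries (x axis), at promoters (left) and gene bodies (right), where each point is 1 gene in 1 library and the dotted line is the 50th percentile. The core genes and HTZ1 sit at 87.9 to 97.7 in the Rvb promoter panel, and HHO1 sits at 36.6 to 65.1.

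HTB1 stood above its copy HTB2 at the promoter in each of the 6 pulldowns, while HTA1 stood above HTA2 in 5 of them, all but Rvb1 replicate 2. The HTB1 promoter had 539 and 292 counts in the Rvb1 pulldowns, 331 and 365 in the Rvb2 pulldowns, 157 and 404 in the Pgk1 pulldowns, and 687, 678 and 717 in the inputs. In CPM the Rvb1 values were 275 and 233, the Rvb2 values 281 and 228, the Pgk1 values 209 and 157, and the input values 151, 148 and 148. All 4 Rvb values exceeded both Pgk1 values, and all 6 pulldown values exceeded the inputs.

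HTB1 was higher in Rvb1 than in Pgk1 by a log2 fold change of 0.50 (SE 0.23) and in Rvb2 than in Pgk1 by 0.49 (SE 0.23). Neither passed edgeR's quasi-likelihood test over all windows, with adjusted p = 0.116 for Rvb1 and 0.289 for Rvb2. Both contrasts use the same Pgk1 libraries, so they are not separate evidence. At the HTA1 promoter the CPM were 277 and 214 in Rvb1, 246 and 212 in Rvb2, 238 and 154 in Pgk1, and 141 to 151 in the inputs, so the Rvb and Pgk1 values overlapped.

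The HTA2 promoter had 233 and 222 CPM in Rvb1, 233 and 192 in Rvb2, 199 and 150 in Pgk1, and 142 to 144 in the inputs. The HTB2 promoter had 226 and 204 CPM in Rvb1, 219 and 191 in Rvb2, 183 and 151 in Pgk1, and 142 to 146 in the inputs. At both genes the Rvb1 values lay above both Pgk1 values, with log2 fold changes of 0.40 (SE 0.20) and 0.38 (SE 0.19) and adjusted p = 0.138 and 0.127 (edgeR).

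Among the H3 and H4 promoters HHT2 was the highest in each of the 4 Rvb pulldowns, but not in Pgk1 replicate 1 or input 1, and the Pgk1 libraries were farthest apart at HHT1. The HHT2 promoter had 573 and 288 counts in Rvb1, 328 and 358 in Rvb2, 182 and 401 in Pgk1, and 673, 703 and 756 in the inputs, which is 292 and 230 CPM in Rvb1, 278 and 223 CPM in Rvb2, 242 and 156 CPM in Pgk1, and 148, 153 and 156 CPM in the inputs. HHT1 had 272 and 228 CPM in Rvb1, 249.6 and 210.1 in Rvb2, 249 and 139 in Pgk1, and 149.1 to 149.6 in the inputs. Pgk1 replicate 1 thus stood among the Rvb values at HHT1 and Pgk1 replicate 2 stood below the inputs.

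The HHF1 promoter ran from 203 to 269 CPM over the 4 Rvb pulldowns, against 227 and 143 in Pgk1. HHF2 ran from 207 to 272 CPM over the 4 Rvb pulldowns, against 233 and 154 in Pgk1. Over the 4 H3 and H4 promoters the log2 fold change of Rvb1 over Pgk1 was 0.37 to 0.45 and that of Rvb2 over Pgk1 was 0.28 to 0.36. None passed the test.

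HTZ1, the gene of the H2A.Z that SWR1 deposits, had 499 and 261 counts at its promoter in Rvb1, 318 and 277 in Rvb2, 144 and 359 in Pgk1, and 619, 678 and 678 in the inputs. The CPM were 254 and 208 in the Rvb1 pulldowns, 270.0 and 173 in the Rvb2 pulldowns, 191 and 139 in the Pgk1 pulldowns, and 136 to 148 in the inputs. The Rvb1 values cleared both Pgk1 values, while Rvb2 replicate 2 fell between them. The log2 fold change was 0.52 (SE 0.24, edgeR adjusted p = 0.115) for Rvb1 over Pgk1 and 0.44 (SE 0.24, adjusted p = 0.344) for Rvb2 over Pgk1.

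HHO1 went the other way from the rest at its promoter. It had 228 and 161 counts in Rvb1, 146 and 230 in Rvb2, 95 and 369 in Pgk1, and 623, 664 and 700 in the inputs. The CPM were 116 and 129 in the Rvb1 pulldowns, 124 and 143 in the Rvb2 pulldowns, 126 and 143 in the Pgk1 pulldowns, and 137, 145 and 145 in the inputs. Both Rvb1 values lay below all 3 inputs, and the Rvb2 and Pgk1 values reached into the input range.

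The order of the promoters within a group was not resolved. In Rvb1 the 9 means other than that of HHO1 ran from 215 ± 15.1 CPM (SD, n = 2) at HTB2 to 261 ± 43.9 (SD, n = 2) at HHT2, and neighbours in that order differed by less than the larger of their SDs. HHO1 stood below them at 122 ± 8.74 CPM (SD, n = 2) in Rvb1 and at 134 ± 13.7 (SD, n = 2) in Rvb2, where the other 9 ran from 205 ± 19.6 (HTB2) to 254 ± 37.9 (HTB1).

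Set against the input of its own strain, each library can be read alone. The median over the 10 promoters was 0.87 and 0.61 (log2) in the Rvb1 pulldowns, 0.76 and 0.47 in the Rvb2 pulldowns, and 0.55 and 0.0028 in the Pgk1 pulldowns, while the median over all promoter windows was between -0.03 and -0.01 in these 6 libraries. In each Rvb pulldown 9 of 10 histone promoters were above 0, beside 47.4% to 49.3% of all windows. The same 9 of 10 were above 0 in Pgk1 replicate 1, beside 46.1% of all windows, and 5 of 10 were in Pgk1 replicate 2, beside 45.5%. HHO1 was below 0 in all 6 pulldowns, at -0.24 and -0.10 in Rvb1, -0.22 and -0.01 in Rvb2, and -0.20 and -0.01 in Pgk1. The 2 pulldowns of a strain share 1 input here, so they are not independent.

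Gene bodies gave a different order. The median over the 10 gene bodies was 0.83 and 0.62 in Rvb1, 0.74 and 0.45 in Rvb2, and 1.04 and 0.10 in Pgk1, so the highest value belonged to Pgk1 replicate 1. In that library 7 of 10 histone gene bodies lay above the 95th percentile of that ratio over all gene body windows, against 1 to 3 in the Rvb pulldowns. HTA1 was the highest histone gene body in each Rvb pulldown, at 1.32 and 1.003 in Rvb1 and 1.17 and 0.77 in Rvb2, against 1.43 and 0.28 in Pgk1. HHT2 stood at 0.82 and 0.69 in Rvb1 and 0.68 and 0.43 in Rvb2, against 1.51 and 0.20 in Pgk1.

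Of the 9 genes other than HHO1, HTZ1 had the lowest gene body value in both Pgk1 libraries. It stood at 0.73 and 0.34 in Rvb1 and 0.72 and 0.29 in Rvb2, against 0.12 and -0.10 in Pgk1. All 4 Rvb values lay above both Pgk1 values. The core histone genes are short, and where the gene body windows were placed is not stated, so how much of such a window lies beyond the coding sequence is not known.

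**Figure D2:**
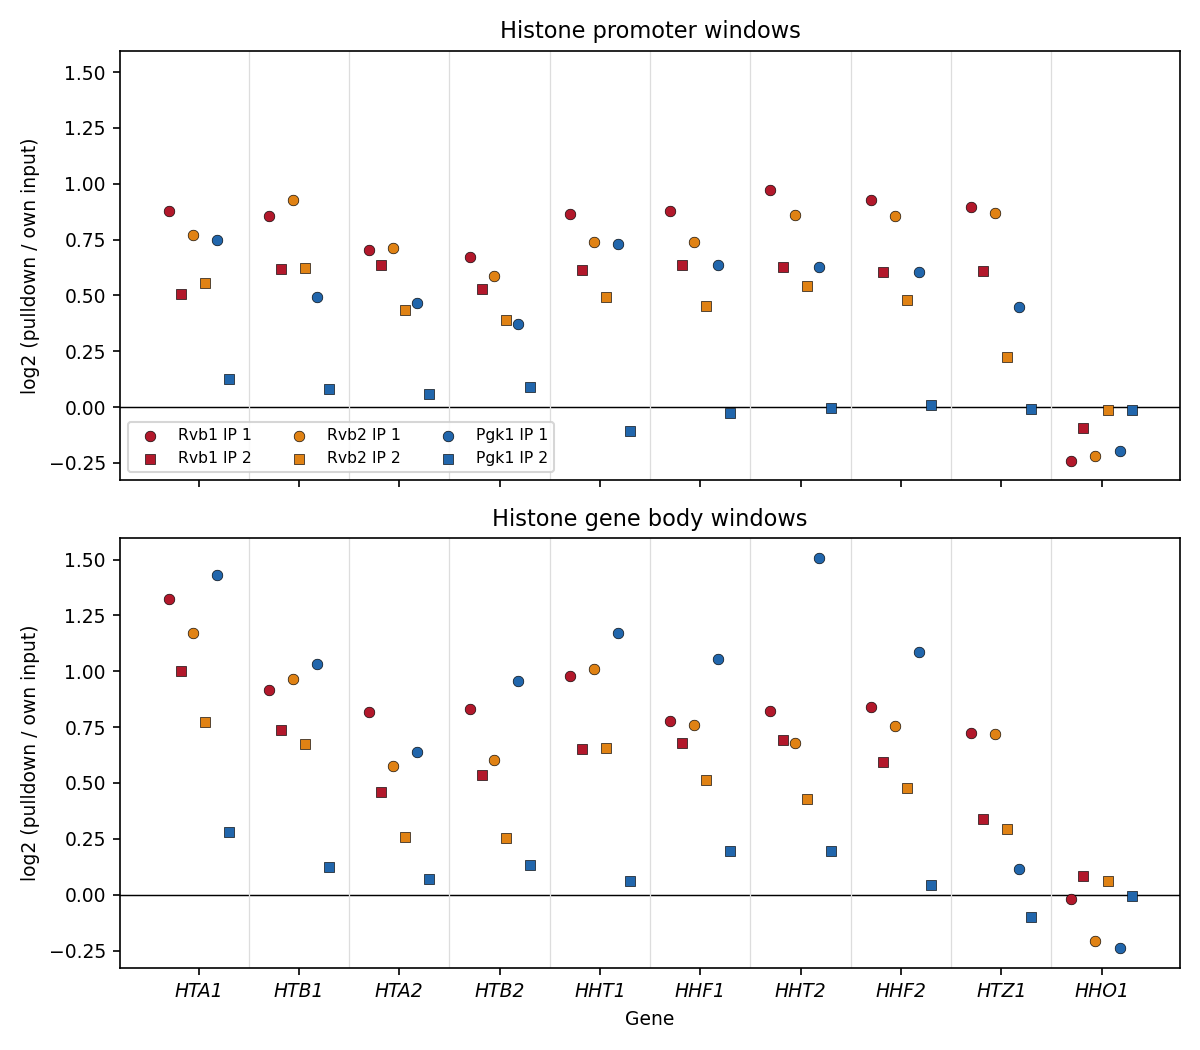
Log2 ratio of each pulldown to the input of its own strain (y axis) at the promoter (top) and gene body (bottom) windows of the 10 histone genes (x axis), with 1 point per library, circles for replicate 1 and squares for replicate 2. At promoters Pgk1 replicate 2 lies between -0.11 and 0.13, and at gene bodies Pgk1 replicate 1 reaches 1.51 at HHT2 and 1.43 at HTA1.

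Histone windows differed from the inputs in the Rvb1 pulldowns. At promoters 10 of 10 histone genes passed edgeR's quasi-likelihood test at an adjusted p under 0.05, where 51.8% of all windows did. The 8 core genes and HTZ1 rose by 0.59 (HTB2) to 0.78 (HHT2) on the log2 scale, a direction that 25.4% of all windows took past the threshold, and HHO1 fell by 0.23 (SE 0.08, adjusted p = 0.0348), beside 26.4% of all windows called lower. At gene bodies 9 of 10 rose, from 0.55 at HTZ1 to 1.21 (SE 0.31, adjusted p = 0.00838) at HTA1, beside 48.9% of all windows called and 23.2% called higher. HHO1 had a log2 fold change of 0.03 (SE 0.09) there. The median over the 10 was 0.74 at promoters and 0.76 at gene bodies, against -0.0042 and -0.01 over all windows.

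The sizes moved less than the calls when a library was left out: the promoter median of Rvb1 over the inputs stayed between 0.58 and 0.88. Without Rvb1 replicate 1 none of the promoters or gene bodies was called, as was 0% of all windows. Without input 1, 4 promoters and 1 gene body were called, beside 28.7% of all promoter and 21.4% of all gene body windows. Without input 2 the counts were 6 and 1, beside 29.5% and 23.3%, and without input 3 they were 8 and 3, beside 30.6% and 25.8%. Between the Rvb1 and Rvb2 strains' inputs the chi-square per degree of freedom was 0.607 at promoters, under Poisson noise but over the 0.458 expected of counts under the ceiling, so both were kept. With their average as 1 library, 6 promoters and 1 gene body were called, beside 28.2% and 22.1% of all windows. The HHO1 promoter call was lost in DESeq2, where its adjusted p was 0.0970, with library sizes taken from promoters and gene bodies summed, with the Rvb inputs averaged, relative to own input, and without Rvb1 replicate 1 or any 1 of the inputs.

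No histone window was called in Rvb2 or Pgk1 against the inputs by edgeR, and 0% of all windows was. For Rvb2, 9 promoters and 6 gene bodies had an unadjusted p under 0.05, beside 38% and 30.4% of all windows. DESeq2 called 9 promoters, beside 21.3% of all windows, and 5 gene bodies, beside 51.7% of the 1852 gene body windows to which it gave an adjusted p. The Rvb2 fold changes had medians of 0.63 and 0.56, with 0.77 (SE 0.20, edgeR adjusted p = 0.0581) at the HTB1 promoter. Leaving out 1 library raised the Rvb2 promoter count along with the share of all windows called. The count was 9 without Rvb1 replicate 1 (beside 30.3% of all windows), Pgk1 replicate 1 (19.6%) or Pgk1 replicate 2 (18.1%), 8 without Rvb1 replicate 2 (28%) and 6 without Rvb2 replicate 2 (18.6%). The gene body count was 5 without Pgk1 replicate 1 (beside 10.1% of all windows) or Pgk1 replicate 2 (9.37%) and 1 without Rvb1 replicate 1 (15.4%).

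In Pgk1 against the inputs, 0 promoters and 7 gene bodies had an unadjusted p under 0.05, beside 9.62% and 8.54% of all windows, and DESeq2 called 0 promoters, beside 14.3% of the 2261 windows to which it gave an adjusted p, and 4 gene bodies, beside 22.2% of 1170. The medians were 0.29 at promoters and 0.65 at gene bodies. HHT2 was highest among the gene bodies at 0.95 (SE 0.31, edgeR adjusted p = 0.272), next to HTA1 at 0.94 (SE 0.31), and HTZ1 stood at 0.03 (SE 0.18). These values came mainly from 1 library: the gene body median was 1.09 without Pgk1 replicate 2, with 7 gene bodies called beside 8.76% of all windows and 2 promoters called beside 12.3%. It was 0.14 without Pgk1 replicate 1, with none called beside 0% of all windows of either kind.

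Rvb over Pgk1 is the comparison that sets the tagged ATPases against another tagged protein. At promoters 0 of 10 histone genes were called for Rvb1 over Pgk1 by edgeR, where 24.3% of all windows were. An unadjusted p under 0.05 was reached by 2, HTB1 and HTZ1, beside 42.7% of all windows, and DESeq2 called 0, beside 30.3% of the 7028 windows to which it gave an adjusted p. The median of the 10 was 0.41, against -0.05 over all windows, with 9 positive values from 0.36 (HTA1) to 0.52 (HTZ1) and HHO1 at -0.20 (SE 0.11). HTB1, HTA2, HTB2 and HTZ1 had both Rvb1 libraries above both Pgk1 libraries, which is 4 of 10 beside 28.4% of all windows in that direction.

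For Rvb2 over Pgk1 0 of 10 promoters were called, as was 0% of all windows. An unadjusted p under 0.05 was reached by 0 histone promoters, beside 17.4% of all windows, and DESeq2 called 0, beside 9.26% of the 2397 windows to which it gave an adjusted p. The median was 0.31 against -0.03 over all windows. HTB1 and HTB2 had both Rvb2 libraries above both Pgk1 libraries, 2 of 10 beside 21.8% of all windows. HHO1 stood at -0.04 (SE 0.11).

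At gene bodies the median difference between Rvb and Pgk1 was smaller than at promoters, but the 2 Pgk1 libraries lay far apart. Relative to own input, their medians over the 10 genes were 1.04 and 0.10, on either side of the 0.45 to 0.83 in Rvb. For Rvb1 over Pgk1 the median was 0.12 against -0.05 over all windows, and 0 of 10 were called where 13.8% of all windows were. DESeq2 called 1, beside 18.7% of all windows. This was HTZ1, which was also the 1 gene with an unadjusted p under 0.05, beside 36.8% of all windows. HTZ1 was at 0.53 (SE 0.20, edgeR adjusted p = 0.0732), and HHT2 was lowest at -0.14 (SE 0.34). HTZ1 was called when Rvb1 replicate 2 or Rvb2 replicate 1 was left out, beside 42.1% and 21% of all windows.

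For Rvb2 over Pgk1 the gene body median was -0.0013 against -0.03 over all windows, with 0 of 10 called beside 0% of all windows. HTZ1, at 0.45 (SE 0.20, adjusted p = 0.443), was the 1 gene with an unadjusted p under 0.05, beside 10.8% of all windows, DESeq2 called 0 of the 10 and 0% of all windows, and HHT2 was at -0.40 (SE 0.34). The 95% interval of the HHT2 difference ran from -1.13 to 0.32. An interval that wide gives no direction.

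**Figure D3:**
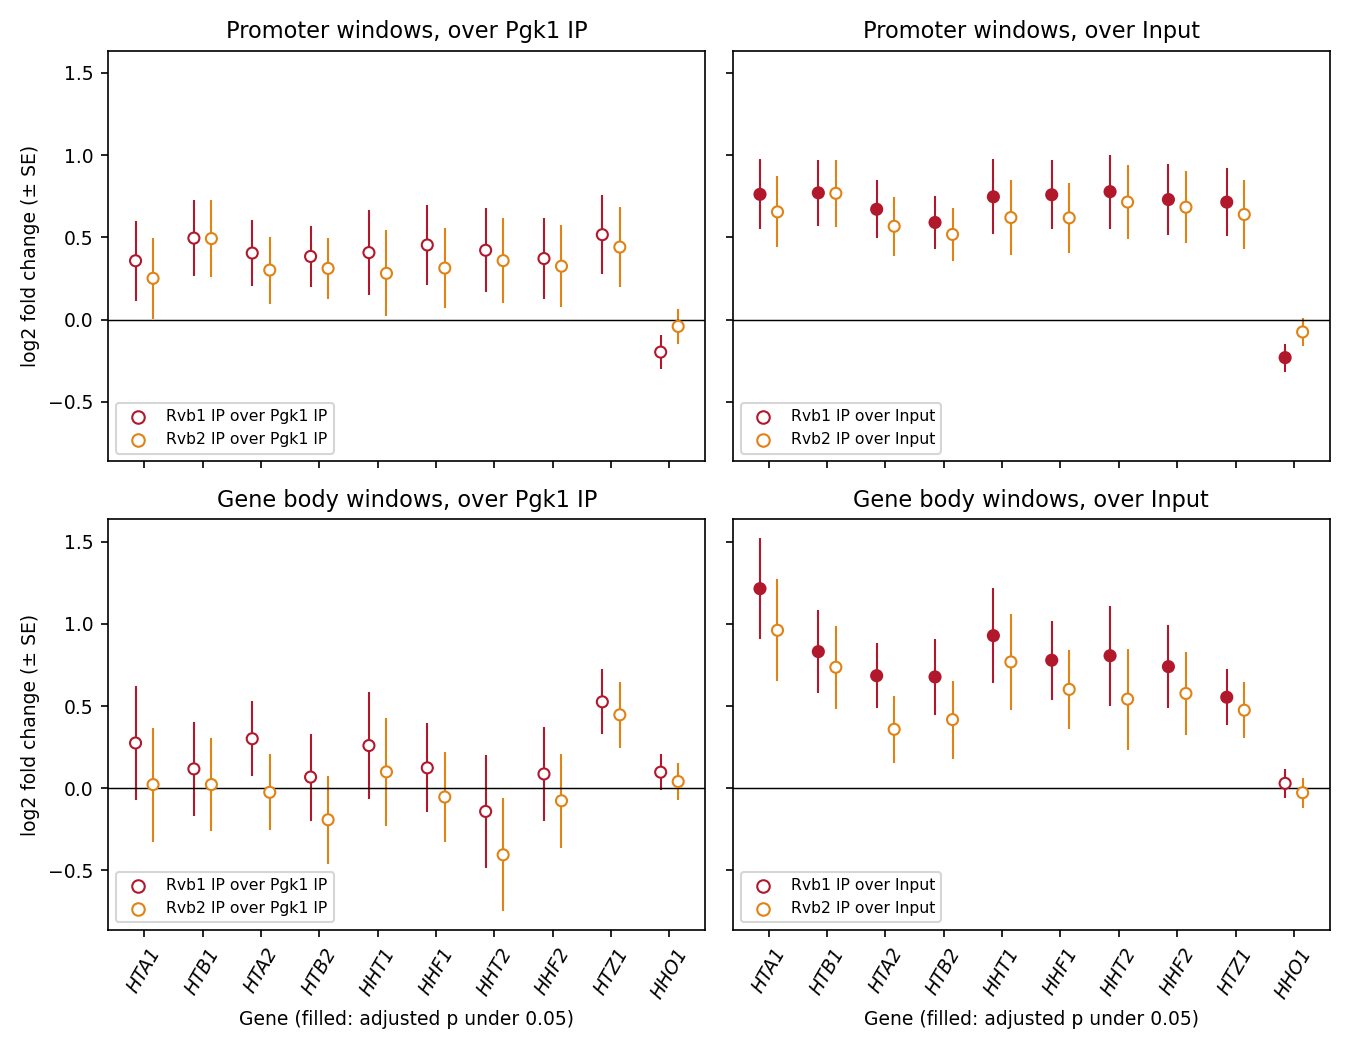
Log2 fold change with its SE (y axis) for the 10 histone genes (x axis) in Rvb1 and Rvb2 over Pgk1 (left) and over the inputs (right), at promoters (top) and gene bodies (bottom), where filled points passed edgeR's quasi-likelihood test at an adjusted p under 0.05. The filled points are the 10 promoters and 9 gene bodies of Rvb1 over the inputs, and every point over Pgk1 is open.

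The size of the Rvb over Pgk1 difference followed which Pgk1 library it was set against. Relative to own input, 9 of 10 promoters and 9 of 10 gene bodies had all 4 Rvb pulldowns above Pgk1 replicate 2, HHO1 being the exception at both windows. Above Pgk1 replicate 1 all 4 Rvb pulldowns stood at 2 promoters, HTB1 and HTB2, and at 2 gene bodies, HTZ1 and HHO1. At 7 core histone gene bodies, all but HTA2, none of the 4 Rvb pulldowns reached Pgk1 replicate 1. The share of all windows with these patterns was not counted, so the counts describe the histone genes alone. The Pgk1 libraries also differed over all windows. The 95th percentile of the log2 ratio to own input was 0.85 in replicate 1 and 0.22 in replicate 2 at promoters. At gene bodies it was 0.90 and 0.21.

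Without Pgk1 replicate 1, the median promoter difference was 0.69 for Rvb1 over Pgk1 and 0.64 for Rvb2 over Pgk1, and edgeR called the 8 core histone promoters for Rvb1 at adjusted p = 0.0343 (HHT1) to 0.0461 (HHF2), beside 27.3% of all windows. Without Pgk1 replicate 2 the medians were 0.12 and 0.07, and no histone promoter was called, beside 10.3% of all windows for Rvb1. At gene bodies the medians were 0.62 and 0.45 without Pgk1 replicate 1, with 3 genes called for Rvb1 (HTA1, HHT1 and HHF2) beside 18.9% of all windows. They were -0.25 and -0.42 without Pgk1 replicate 2, with none called for Rvb1 beside 0.213% of all windows. In each of these fits the lone Pgk1 library is assumed to vary like the other groups. Pgk1 replicate 1 is the shallowest library and replicate 2 the deepest pulldown, and the part of depth in this split was not tested.

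**Figure D4:**
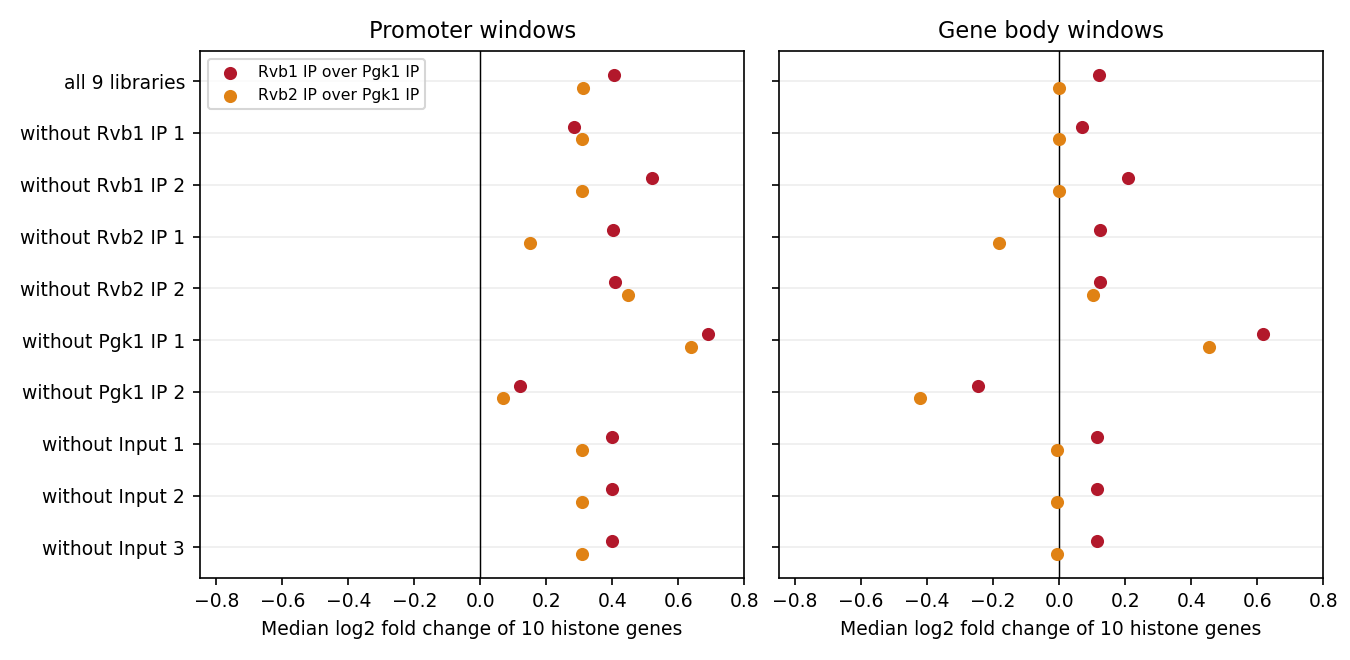
Median log2 fold change over the 10 histone genes (x axis) for Rvb1 and Rvb2 over Pgk1, with all 9 libraries and with each library left out in turn (y axis), at promoters (left) and gene bodies (right). The promoter medians run from 0.07 to 0.69 and stay above 0, while the gene body medians run from -0.42 to 0.62 and change sign with the Pgk1 library left out.

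The direct comparison of Rvb1 with Rvb2 called 0 of 10 histone genes at either window in edgeR and in DESeq2, with 0% of all windows called by edgeR. The share of all windows called by DESeq2 is not given here, so its count is not set against one. At an unadjusted p under 0.05 there were 0 histone genes at both windows, beside 5.91% of all promoter and 7.36% of all gene body windows. The median was 0.07 at promoters and 0.17 at gene bodies. The 95% interval of the difference ran from -0.48 to 0.49 at the HTB1 promoter and from -0.43 to 0.58 at the HTZ1 promoter, so differences of such sizes could not be seen. At gene bodies HHF1 and HHT2 had both Rvb1 libraries above both Rvb2 libraries, 2 of 10 beside 11.5% of all windows.

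The promoter share of the histone genes' reads was higher in the Rvb pulldowns than in the Pgk1 pulldowns, as it was over all windows. The library whose histone share lay farthest from that over all windows was Pgk1 replicate 1. In Rvb1 the promoter windows held 54.2% ± 2.92 (SD, n = 2) of the 10 genes' reads over both windows, and in Rvb2 they held 54.5% ± 2.05 (SD, n = 2). In Pgk1 the share was 46.6% ± 3.78 (SD, n = 2), and the inputs gave 50.4% ± 0.644 (SD, n = 3). Pgk1 replicate 1 was at 43.9% and replicate 2 at 49.2%, where all windows gave 50.7% and 49.8%. Over all windows the share was 54.3% in Rvb1, 52.7% in Rvb2, 50.3% in Pgk1 and 49.6% in the inputs. At HHT2 the share was 58.4% and 50.5% in Rvb1, 58.3% and 54.2% in Rvb2, 37.2% and 47.6% in Pgk1, and 48.3% to 50.7% in the inputs. Both Pgk1 values at HHT2 were thus below every other library, and the Pgk1 value that lay farther off was that of replicate 1.

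In a joint fit of both windows, the promoter difference minus the gene body difference between Rvb1 and Pgk1 was called at 5 of 10 histone genes, all higher at the promoter, where 28.3% of all genes were called and 24.5% in that direction. These were HHT2 (0.69, SE 0.20, edgeR adjusted p = 0.0347), HHF1 (0.57, SE 0.15), HTB1 (0.57, SE 0.17), HTB2 (0.50, SE 0.15) and HTA2 (0.36, SE 0.12). The median of the 10 was 0.42 against 0.28 over all genes. For Rvb2 over Pgk1 the median was 0.46 against 0.15, with 0 of 10 called, 0% of all genes called and 6 at an unadjusted p under 0.05 beside 17% of all genes, HHT2 being the highest at 0.76 (SE 0.21, adjusted p = 0.211). HTZ1 and HHO1 were not called, at 0.33 (SE 0.17) and -0.0078 (SE 0.14) for Rvb1.

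The count of 5 fell to 0 without Rvb1 replicate 1, where the share of all genes called was 0%, and without Pgk1 replicate 2, where it was 0.697%. It also fell to 0 without input 1, 2 or 3, where the shares were 0%, 0% and 5.86%, so the calls over all genes fell with it. Without Pgk1 replicate 1 it was 1, beside 25.1% of all genes. The difference at HHT2 was 0.44 without Pgk1 replicate 1 and 1.06 without Pgk1 replicate 2. DESeq2 was not run on the joint fit.

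Divergent partners, whose promoter windows can overlap, had nearly equal promoter counts. Over the 9 libraries the ratio of HTA1 to HTB1 counts ran from 0.876 to 1.14, that of HTA2 to HTB2 from 0.973 to 1.09, that of HHT1 to HHF1 from 0.970 to 1.09 and that of HHT2 to HHF2 from 1.01 to 1.08. Near-equal counts do not by themselves show shared reads. HHF1 and HHF2, which are not partners, differed by -0.12 to 0.06 in log2 CPM at promoters over the pulldowns. The placement of the windows is not stated, so partners cannot be taken as separate observations. With each pair taken once, the median of the resulting 6 promoter values was 0.41 for Rvb1 over Pgk1 and 0.32 for Rvb2 over Pgk1, against 0.41 and 0.31 over the 10 genes.

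At gene bodies the copies of a histone differed most between the H2A genes, and at promoters between the H2B genes, by the median over the pulldowns. At gene bodies HTA1 exceeded HTA2 in 6 of 6 pulldowns, by 0.23 to 0.81 on the log2 scale of CPM, while the inputs differed by 0.01 to 0.10. HTB1 exceeded HTB2 at promoters in 6 of 6 pulldowns, by 0.05 to 0.36, and the inputs by 0.02 to 0.10. HHT1 over HHT2 at gene bodies lay between -0.37 and 0.24 in the pulldowns, and HHF1 over HHF2 between -0.03 and 0.15. The handling of reads with several mapping places is not stated, so values of such copies are uncertain.

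Over the 9 libraries the histone genes other than HHO1 moved together. The Pearson correlation of a gene's log2 CPM with the mean of the other 9 was 0.956 (HTZ1) to 0.997 (HHT2) at promoters, against -0.87 for HHO1, and 0.728 (HTZ1) to 0.996 (HTA1) at gene bodies, against -0.51 for HHO1. These describe 9 libraries in 4 groups, and the windows of a library share its depth. The windows most like the histone mean were the promoters of GSY1 (glycogen synthase), MDJ1 (a mitochondrial co-chaperone) and HST2 (a sirtuin), each at 0.997, and the gene bodies of tG(GCC)F1, a glycine tRNA gene, at 0.998, ENO2 (enolase) at 0.997 and VMA3 (a vacuolar ATPase subunit) at 0.995. Likeness of this kind was common: 719 of 7024 promoter windows and 600 gene body windows exceeded 0.9.

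The genes beside the histone genes were less uniform. The 12 flanking genes had a median promoter value over own input of 0.10 and 0.14 in Rvb1, 0.09 and -0.0025 in Rvb2, and -0.01 and -0.01 in Pgk1, below the histone median in each of the 6 libraries, with both near 0 in Pgk1 replicate 2. At gene bodies the flanking medians were -0.21 and -0.14 in Rvb1, -0.12 and -0.08 in Rvb2, and -0.04 and -0.02 in Pgk1. The median over all gene body windows lay between -0.03 and 0.0054 in these 6 libraries. At promoters 2 of the 12 were called for Rvb1 over Pgk1, and at gene bodies 2, beside 24.3% and 13.8% of all windows. KTR5, a mannosyltransferase gene beside the HHT2-HHF2 pair, rose at its promoter in Rvb1 over Pgk1 by 0.69 (edgeR adjusted p = 0.0299), and HRD1, a ubiquitin ligase gene beside HTZ1, rose by 0.62 (adjusted p = 0.0389). UTP20, a ribosome biogenesis gene beside the HTA2-HTB2 pair, fell by 0.77 at its gene body (adjusted p = 0.0242), and NAN1, beside HHO1, fell by 0.62 (adjusted p = 0.0314). Without Rvb1 replicate 1, 0 windows of either kind were called over the whole genome in Rvb1 over Pgk1, these 4 included. Without Pgk1 replicate 1, KTR5 was called at 0.68 (adjusted p = 0.0463), UTP20 at -0.72 and NAN1 at -0.69 (adjusted p = 0.0420 for both), and HRD1 was not, at 0.63 (adjusted p = 0.0645). Without Pgk1 replicate 2, none of the 4 was, at 0.70 for KTR5, 0.62 for HRD1, -0.89 for UTP20 and -0.47 for NAN1, with adjusted p = 0.0898 to 0.242. KTR5, HRD1 and NAN1 also lost their calls without any 1 of the inputs, and UTP20 without input 1.

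Genes for histone regulators and chaperones gave calls in both directions. Of 23 such genes, 1 rose and 2 fell at the promoter in Rvb1 over Pgk1, beside 24.3% of all windows called in either direction, with a list median of -0.11 against -0.05 over all windows. YTA7, whose product acts at histone gene chromatin, rose by 0.82 (SE 0.20, edgeR adjusted p = 0.0185). HIR1, a HIR complex subunit, fell by 0.61 (SE 0.18, adjusted p = 0.0298), and SWI6, a subunit of the cell cycle factors SBF and MBF, fell by 0.52 (SE 0.12, adjusted p = 0.0165). These calls too were absent without Rvb1 replicate 1. Without Pgk1 replicate 1 the 3 promoters were called, at 0.95 for YTA7, -0.76 for HIR1 and -0.53 for SWI6 (adjusted p = 0.0343 for each), and without Pgk1 replicate 2 none of them was, at 0.66, -0.32 and -0.50 (adjusted p = 0.0853, 0.370 and 0.0789). The HIR1 call was also lost without any 1 of the inputs. In Rvb2 over Pgk1 none of the 23 promoters was called by edgeR and 2 had an unadjusted p under 0.05, beside 17.4% of all windows. YTA7 was highest there at 0.55 (SE 0.20) and CSE4, the centromeric H3 gene, lowest at -0.33 (SE 0.21). At gene bodies in Rvb1 over Pgk1 YTA7 rose by 0.43 (SE 0.13, adjusted p = 0.0410) and ASF1 fell by 0.39 (SE 0.13, adjusted p = 0.0466), which is 2 of 23 beside 13.8% of all windows. Without Pgk1 replicate 1 YTA7 was called (adjusted p = 0.0420) and ASF1 was not (adjusted p = 0.0578), and neither was without Pgk1 replicate 2 (adjusted p = 0.323 and 0.299) or without any 1 of the inputs.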

How the data were processed

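The authors deposited raw counts of reads, whole numbers with no scaling, in 1 table for promoter windows and 1 for gene body windows of 500 bp, over 9 libraries. FastQC, Bowtie2, SAMtools, Picard, deepTools and bedtools are named in the submitters' processing notes. The genome build, the placement of the windows and how duplicate or multi-mapped reads were handled are not stated there or in the labels, so no coordinates are printed. Of 7036 identifiers, 5956 matched a locus tag of the RefSeq gene table, which was used for names and neighbours.

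Counts were tested with edgeR 4.0.16 (R 4.3.3): filterByExpr, TMM factors and the quasi-likelihood test, in 1 fit of 9 libraries in 4 groups with 5 residual degrees of freedom, Benjamini-Hochberg adjusted over all windows. SEs are the absolute log2 fold change divided by the square root of the test's F statistic. Ratios to own input are log2 CPM with a prior count of 2. Promoter and gene body counts were joined in a fit with a library block and 1 library size for both windows. The scripts were tested on simulated data.

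The histone genes and the lists of regulators and flanking genes were chosen with earlier results of these data known. All 10 histone genes are described. Regulators are named where called in a promoter comparison over Pgk1, or where highest or lowest. ASF1, the 4 flanking genes with values and the joint fit's genes were picked after their values were seen. Likeness names the 3 windows of each kind with the highest correlation, at a mean count of at least 20.

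Alternatives were RLE size factors, library totals over both windows, no filter or a mean count of at least 100, DESeq2 1.42.0, a ceiling correction, the Rvb inputs averaged, a robust spread, own inputs, a fit without the inputs, such a fit with a replicate block, divergent pairs counted once, and each library left out. A correction for GC content and a search for promoter motifs were not run, since window sequences were not used here.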

Additional observations from a re-analysis of the deposited data

How the results depend on the processing

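Across all settings run, the promoter medians of Rvb1 and Rvb2 over Pgk1 stayed positive, at 0.39 to 0.53 and 0.30 to 0.38 without a library left out, and DESeq2 called 0 of these promoters. Of 1020 single-gene values under other settings 950 kept direction and side of the threshold, 12 changed direction, 37 lost and 21 gained a call; for 4 of the 950, all of HHO1, DESeq2 gave no adjusted p. At promoters the setting without a filter tested the same 7034 windows as the main fit, so its values were bound to stay the same. Of 1080 values with 1 library left out, 872 kept both, 46 changed direction, 84 lost and 78 gained a call.

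The library total over both windows as library size lowered the gene body median of all windows to -0.21 (from -0.05) for Rvb1 over Pgk1, -0.12 for Rvb2 over Pgk1, -0.30 for Rvb1 over the inputs, -0.23 for Rvb2 and -0.12 for Pgk1. The histone gene body medians became -0.0023 for Rvb1 over Pgk1, 0.47 for Rvb1 over the inputs and 0.33 for Rvb2 over the inputs. Relative to all windows, the histone median of Rvb1 over Pgk1 was 0.17 before and 0.21 after, and that of Rvb1 over the inputs was 0.77 and 0.78. Single gene bodies became -0.0057 at HTB1, -0.058 at HTB2, -0.027 at HHF2 and -0.063 at HHO1 for Rvb1 over Pgk1, -0.042 at HTA1, -0.041 at HTB1 and -0.058 at HHO1 for Rvb2 over Pgk1, -0.25 at HHO1 for Rvb1 over the inputs, and -0.095 at HTZ1 for Pgk1 over the inputs. The HHO1 promoter of Rvb2 over Pgk1 became 0.0029, and 1 promoter was called for Rvb2 over the inputs, beside 7.44% of all windows.

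DESeq2 called 9 promoters and 5 gene bodies for Rvb2 over the inputs, 4 gene bodies for Pgk1 over the inputs and 1 gene body for Rvb1 over Pgk1. With the Rvb inputs averaged, 6 promoters and 1 gene body were called for Rvb1 over the inputs, and with each strain's own input 0 and 0, a fit with fewer residual degrees of freedom. Relative to own input the HTA2 gene body of Rvb2 over Pgk1 was 0.061 and the HTZ1 gene body of Pgk1 was -8.1e-04. The gene body median of Rvb2 over Pgk1, -0.0013, crossed 0 with RLE size factors (0.00036), the ceiling correction (0.022), own input (0.029) and the replicate block (0.026). The cause was not tested.

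Replicate numbers were shared by the pulldown groups, but the labels do not say that they mark a batch. Deviations of same-numbered pulldowns correlated at 0.73 for Rvb1 with Rvb2, 0.23 for Rvb1 with Pgk1 and 0.35 for Rvb2 with Pgk1 at promoters. With the replicate block, fitted without the inputs, the HTZ1 gene body was at 0.48 (edgeR adjusted p = 0.0293) for Rvb1 over Pgk1. No other histone call among the pulldowns was made. The share of all windows called in that fit is not given here, so the HTZ1 call is not set against it.

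With each library left out in turn, the count of called promoters ran from 0 to 8 for Rvb1 over Pgk1, from 0 to 10 for Rvb1 over the inputs, from 0 to 9 for Rvb2 over the inputs and from 0 to 2 for Pgk1 over the inputs. The count of called gene bodies ran from 0 to 3 for Rvb1 over Pgk1, from 0 to 9 for Rvb1 over the inputs, from 0 to 5 for Rvb2 over the inputs and from 0 to 7 for Pgk1 over the inputs. The count for the promoter minus gene body difference of Rvb1 over Pgk1 ran from 0 to 6. The share of all windows called also changed from fit to fit, so these counts do not describe the histone genes alone. The promoter median of Rvb1 over Rvb2 ran from -0.078 to 0.24, and the gene body medians from -0.25 to 0.62 for Rvb1 over Pgk1 and from -0.42 to 0.45 for Rvb2 over Pgk1.

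Single genes changed direction in some of these fits. At gene bodies, Rvb1 over Pgk1 ran from -0.21 to 0.94 at HTA1, -0.30 to 0.62 at HTB1, -0.32 to 0.51 at HTB2, -0.22 to 0.90 at HHT1, -0.27 to 0.59 at HHF1, -0.68 to 0.64 at HHT2 and -0.38 to 0.67 at HHF2. Rvb2 over Pgk1 ran from -0.47 to 0.69 at HTA1, -0.39 to 0.52 at HTB1, -0.32 to 0.25 at HTA2, -0.58 to 0.24 at HTB2, -0.38 to 0.73 at HHT1, -0.45 to 0.41 at HHF1, -0.95 to 0.37 at HHT2, -0.55 to 0.50 at HHF2 and -0.13 to 0.23 at HHO1. Over the inputs, the HHO1 gene body ran from -0.0090 to 0.082 in Rvb1 and -0.20 to 0.074 in Rvb2, and the HTZ1 gene body from -0.066 to 0.15 in Pgk1. At promoters, Rvb2 over Pgk1 ran from -0.057 to 0.57 at HTA1, -0.12 to 0.72 at HHT1, -0.015 to 0.65 at HHF1 and -0.17 to 0.10 at HHO1. Over the inputs, HHO1 ran from -0.20 to 0.018 in Rvb2, and Pgk1 ran from -0.10 to 0.74 at HHT1, -0.034 to 0.63 at HHF1, -0.021 to 0.44 at HTZ1 and -0.17 to 0.0098 at HHO1. The promoter minus gene body difference ran from -0.11 to 0.088 at HHO1 in Rvb1 over Pgk1, and from -0.018 to 0.38 at HTZ1 and -0.016 to 0.22 at HHO1 in Rvb2 over Pgk1. GC content could not be corrected for. If the count ceiling holds, inputs at over 53% of it limit how large a difference from them can be counted.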
